A study of Mus musculus with 9 samples.

Results

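The 44 genes of the NF-kB pathway and its feedback loop were followed in BV2 cells, an immortalized mouse microglial line, by gene name, out of 40993 genes in the table of expression values. They were 5 subunits of the transcription factor, 6 members of the IkB family, 5 feedback proteins and 9 further target genes, together called the core and feedback side (25 genes), and 9 kinases and their partners and 10 adaptors, together called the upstream side (19 genes). The set was chosen by name with results of these libraries already known, and Nfkbia and Cd83 were the genes that marked it. The values of those 2 genes are therefore a description with no test, and counts of genes past the test are given over the other 42. Counts by library and medians of log2 changes do include Nfkbia and Cd83. Each of 3 groups had 3 RNA-seq libraries, namely non-treated controls and cells exposed for 12 h to MNPs@SiO2(RITC) at 10 or at 100 µg/ml. These nanoparticles have a core of cobalt ferrite and a shell of silica into which the dye rhodamine B isothiocyanate is built. The sample labels write the doses as 0.01 and 0.1 µg/µl and do not say whether the libraries of a group came from separate cultures, so a p-value measures the spread between these libraries, which may be technical.

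NF-kB proteins are transcription factors that wait in the cytoplasm of resting cells, held there by inhibitors of the IkB family. Receptors for microbial products and cytokines recruit adaptors and ubiquitin ligases, these switch on the IkB kinase complex, and the kinase marks IkB for destruction so that the factor enters the nucleus. Among the genes it then switches on are its own inhibitors, which close a negative feedback loop, and in microglia and other macrophages also cytokines, adhesion molecules and survival genes.

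Values are FPKM as the authors computed them, that is fragment counts divided by transcript length and by library size, with 1 value for each gene and library. A gene was tested where its mean over the 9 libraries was at least 1 FPKM, which held for 11161 genes and for 42 of the 44, Traf1 and Il6 being below it. All 44 were above 0 in every library. Fold changes are on the log2(FPKM + 1) scale, and adjusted p-values come from limma over all genes tested. The sums of FPKM lay between 473547 and 522812 per library, and steps between low values put the depth at about 13100000 to 16300000 fragments. The 100 µg/ml library of replicate 1 had the lowest mean correlation with the others of its group (0.9675, against 0.9697 to 0.9781 for the others). The cells carried the macrophage marker Cd68 at 376 to 470 FPKM. Of the markers of microglia in the brain, Cx3cr1 and P2ry12 reached at most 0.146 FPKM, while Tmem119 lay at 1.87 to 2.65 FPKM. The summed level of 11 microglia and macrophage markers was 1255 to 1456 in controls, 1237 to 1360 at 10 µg/ml and 1174 to 1382 at 100 µg/ml. Of these 11 markers 9 were tested, and none passed the adjusted limma threshold in any comparison. At 100 µg/ml against control 2 of the 9 had an unadjusted p under 0.05, where 19.4% of all genes tested had, and their median log2 change was -0.199. None of the markers of astrocytes, neurons, oligodendrocytes or fibroblasts reached a mean of 1 FPKM, and Aqp4, Rbfox3, Snap25, Syt1, Mog, Col1a2 and Dcn were listed at 0 throughout. In RNA of a whole culture, fewer cells of a state and less RNA per cell cannot be told apart.

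A kappa B site is a stretch of DNA that NF-kB can bind, so the promoters of genes the results turn on are shown first, where available. The stretches run from 250 bases before to 50 bases after a transcription start and were taken from RefSeq on GRCm38.p6, where 36 of the 44 genes matched an entry (49 promoters). Each was searched on both strands for the kappa B consensus of 10 bases (3 G, a purine, 2 of any base, 2 pyrimidines and 2 C), counting matches that overlap. Matches are in capitals, and each sequence is written 5′ to 3′ on the strand of its gene. Nfkbiz and the marking gene Cd83 had no entry, so their promoters are not shown. The genes shown are the marking gene Nfkbia, the genes past the adjusted threshold with an entry (Tnfaip2, Icam1 and Rela), and 3 more core and feedback genes with a match whose libraries at 100 µg/ml did not overlap those of the controls, a choice made after their values were seen. Their intervals are chr12:55492598-55492897 on the minus strand for Nfkbia, chr12:111442411-111442710 on the plus strand for Tnfaip2, chr10:19015361-19015660 on the minus strand for Tnfaip3, chr3:107760420-107760719 on the minus strand for Csf1, chr17:45555450-45555749 on the plus strand for Nfkbie, chr9:21015690-21015989 on the plus strand for Icam1 and chr19:5637291-5637590 on the plus strand for Rela.
Nfkbia: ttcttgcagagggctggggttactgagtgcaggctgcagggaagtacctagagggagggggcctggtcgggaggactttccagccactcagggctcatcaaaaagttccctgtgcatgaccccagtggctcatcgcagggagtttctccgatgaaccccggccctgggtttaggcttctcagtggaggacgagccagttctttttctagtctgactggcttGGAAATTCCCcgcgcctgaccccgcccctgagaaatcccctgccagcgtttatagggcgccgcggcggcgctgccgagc
Tnfaip2: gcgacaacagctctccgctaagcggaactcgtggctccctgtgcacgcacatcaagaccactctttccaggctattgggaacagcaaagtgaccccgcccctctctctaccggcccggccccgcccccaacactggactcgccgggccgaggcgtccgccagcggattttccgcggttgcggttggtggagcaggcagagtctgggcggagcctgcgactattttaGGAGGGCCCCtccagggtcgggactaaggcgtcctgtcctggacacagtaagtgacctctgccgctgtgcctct
Tnfaip3: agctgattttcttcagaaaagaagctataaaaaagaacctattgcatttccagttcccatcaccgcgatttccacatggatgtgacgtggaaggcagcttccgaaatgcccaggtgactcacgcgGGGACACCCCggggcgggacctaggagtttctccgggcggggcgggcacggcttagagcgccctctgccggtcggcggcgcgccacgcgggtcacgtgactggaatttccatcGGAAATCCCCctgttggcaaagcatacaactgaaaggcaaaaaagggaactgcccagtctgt
Csf1: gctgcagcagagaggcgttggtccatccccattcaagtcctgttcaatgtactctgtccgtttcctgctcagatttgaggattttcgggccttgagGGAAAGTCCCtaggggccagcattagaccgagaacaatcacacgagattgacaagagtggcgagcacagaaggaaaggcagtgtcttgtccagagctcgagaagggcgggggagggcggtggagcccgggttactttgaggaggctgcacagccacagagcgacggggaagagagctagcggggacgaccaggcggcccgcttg
Nfkbie: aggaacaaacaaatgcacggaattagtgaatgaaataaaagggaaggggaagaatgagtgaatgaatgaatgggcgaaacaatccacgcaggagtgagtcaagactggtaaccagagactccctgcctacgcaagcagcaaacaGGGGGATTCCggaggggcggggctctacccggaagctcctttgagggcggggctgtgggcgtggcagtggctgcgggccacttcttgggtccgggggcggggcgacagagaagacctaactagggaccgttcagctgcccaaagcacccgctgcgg
Icam1: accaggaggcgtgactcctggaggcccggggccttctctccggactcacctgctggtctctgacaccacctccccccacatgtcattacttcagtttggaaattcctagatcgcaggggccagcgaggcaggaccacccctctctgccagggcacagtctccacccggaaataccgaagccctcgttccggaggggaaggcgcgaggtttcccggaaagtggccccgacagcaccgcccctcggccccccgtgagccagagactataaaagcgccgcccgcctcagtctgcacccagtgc
Rela: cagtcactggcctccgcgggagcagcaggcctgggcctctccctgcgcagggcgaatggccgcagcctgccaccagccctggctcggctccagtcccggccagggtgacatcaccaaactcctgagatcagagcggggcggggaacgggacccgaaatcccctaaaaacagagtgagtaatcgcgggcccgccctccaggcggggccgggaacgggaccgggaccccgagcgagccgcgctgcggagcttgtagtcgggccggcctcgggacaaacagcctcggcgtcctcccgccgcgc
The match began 29 bases before the start in Nfkbia, 24 before it in Tnfaip2, 154 before it in Csf1 and 106 before it in Nfkbie. Tnfaip3 held matches that began 125 and 12 bases before the start. In Icam1 and Rela these letters did not occur in this window, which says nothing about whether the factor binds there. Over all 32851 promoters of this length, 2779 (8.5%) held a match, and among the promoters of genes tested the share was 10.3%. Of the members, 18 of 49 promoters held one, 14 of the 25 on the core and feedback side and 4 of the 24 on the upstream side. Promoters of a gene can overlap, and in Irak1 and Nfkb2 the same site was counted in more than 1 of them. By gene, 12 of 20 core and feedback genes with an entry had at least 1 promoter with a match (Nfkb2, Rel, Nfkbia, Nfkbie, Nfkbid, Bcl3, Tnfaip3, Tnip1, Cyld, Tnfaip2, Csf1 and Il6), and 3 of 16 upstream genes did (Map3k7, Traf3 and Irak1). Over the genes tested with an entry, 12.2% did. A match is a description of the letters. The members with a match did not move one way, as Csf1 was higher and Nfkbia, Nfkbie, Tnfaip3 and Tnfaip2 were lower in every library at 100 µg/ml than in every control library, while the libraries of Nfkb2, Rel, Nfkbid, Bcl3, Tnip1, Cyld and Il6 overlapped.

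The 44 genes covered a wide range of levels. Tnfaip2, a target gene first found as induced by tumour necrosis factor, had the highest mean over the 9 libraries, 179 FPKM. It was followed by the IkB kinase subunit Chuk at 52.9 FPKM and the subunit precursor Nfkb1 at 49.1 FPKM. Within the subunits the means ran from 5.45 FPKM for Relb to Nfkb1, and within the IkB family from 1.22 FPKM for Nfkbie to 41.7 FPKM for Nfkbia. Feedback genes lay between 8.70 FPKM for the deubiquitinase gene Cyld and 33.8 FPKM for Tnip1, kinases between 3.96 FPKM for Map3k14 and Chuk, and adaptors between 3.09 FPKM for Irak3 and 39.6 FPKM for Irak1. Il6, the gene of a secreted cytokine, lay between 0.0867 and 0.757 FPKM and Traf1 between 0.0905 and 0.418 FPKM, which came to about 2.7 to 22.4 and 4.3 to 18.7 fragments per library. Differences between groups in these 2 genes were not tested in the main fit, and so few fragments leave them uncertain.

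**Figure D1:**
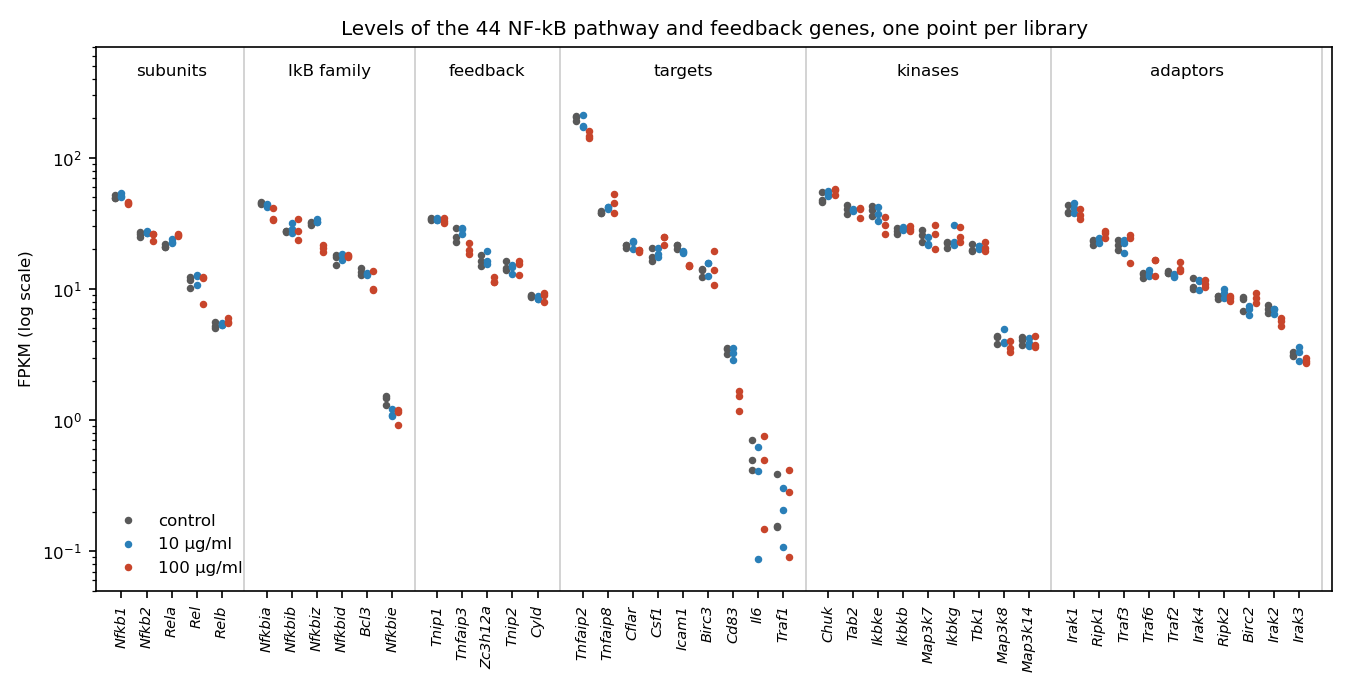
FPKM on a log scale for each of the 44 genes, grouped by role and ordered by mean within a role, with one point per library in grey for controls, blue for 10 µg/ml and red for 100 µg/ml. Tnfaip2 stands highest, at 141 to 213 FPKM, and the red points of Nfkbiz and Cd83 lie below all points of the other groups.

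At 100 µg/ml the transcripts of the IkB family gene Nfkbiz and of the target genes Icam1 and Tnfaip2 fell. The transcript of the subunit Rela rose, while no kinase or adaptor passed the test. The marking genes Nfkbia and Cd83 were also lower in every library at 100 µg/ml than in every control library. Over the 40 genes tested other than the marking genes, 1 was called higher at an adjusted limma p of 0.05 and 3 were called lower, where 0.708% and 1.41% of all genes tested were. By library, 4 of the 44 were higher at 100 µg/ml in all 3 libraries than in any control and 13 were lower, where 12.5% and 11.4% of all genes tested were, and the libraries of the other 27 overlapped. Because the set was put forward with results of these libraries known, these counts describe it and nothing is read from their size. The core and feedback side held 10 of the 13 lower genes and 2 of the 4 higher ones. The marking genes Nfkbia and Cd83 were among the 10. The median log2 change over the 25 genes of this side, these 2 included, was -0.085, the value of Il6, a gene below the limit for testing. That median was -0.040 without replicate 1 and -0.130 without replicate 2 of the 100 µg/ml group, and -0.053 and -0.052 without control replicate 2 or 3. With all libraries but without the 2 marking genes, the middle value was that of Nfkb2, -0.053. The median level of a side varied between replicates of a group with an SD of 0.078 on the core and feedback side. On the upstream side that SD was 0.161. The upstream side held 3 lower and 2 higher genes and a median of -0.0094 over its 19, which took either sign when single libraries were left out (-0.025 to 0.058, the highest without replicate 1 of the 100 µg/ml group), and the median over all genes tested was -0.0016. The difference between the sides was not tested. The 9 microglia and macrophage markers tested had a larger median log2 change in the same direction, -0.199, and 3 of them (Aif1 at -0.65, Csf1r and Ptprc) lay below every control in every 100 µg/ml library. Their part in the result was not tested. Where only the 6 libraries compared entered the fit, 1 of the 4 calls was kept (Nfkbiz), and 2 were kept (Nfkbiz and Icam1) without any 1 of the 3 control libraries, replicate 1 or 3 of the 10 µg/ml group (the former with Zc3h12a added), or replicate 2 or 3 of the 100 µg/ml group.

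Rela encodes the subunit that pairs with the product of Nfkb1 in the most common form of the factor. Its 3 control libraries stood at 20.9, 20.8 and 22.1 FPKM, the 10 µg/ml libraries at 22.5, 22.7 and 24.1 FPKM, and the 100 µg/ml libraries at 26.2, 25.7 and 25.4 FPKM. The 3 groups did not overlap and were ordered by dose. From control to 100 µg/ml the mean went from 21.3 ± 0.759 to 25.8 ± 0.420 FPKM (SD, n = 3), a log2 change of 0.27 with an SE of 0.051 and a limma adjusted p of 0.037. The call was kept in 7 of 17 alternative settings, and leaving out any single library other than replicate 1 of the 100 µg/ml group put the adjusted p between 0.0578 and 0.153, with log2 changes of 0.25 to 0.29. The gene (ENSMUSG00000024927) lies on the plus strand of GRCm38 at chr19:5637483-5648130.

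Its partner gene Nfkb1, whose product is cut to a subunit and whose uncut form acts as an inhibitor, stood in the controls at 49.3, 52.2 and 49.6 FPKM. It stood at 50.3, 53.7 and 51.2 FPKM at 10 µg/ml and at 44.9, 46.2 and 44.4 FPKM at 100 µg/ml. All 3 of the latter lay below all 6 other libraries, but the log2 change from control, -0.15, did not pass the test (limma adjusted p = 0.138). Of the other subunits, Relb and Nfkb2, the pair of the alternative pathway, and Rel, the subunit of activated lymphoid and myeloid cells, overlapped the controls, with log2 changes of 0.096, -0.053 and -0.10. In Rel the 100 µg/ml libraries stood at 7.72, 12.2 and 12.4 FPKM, so the low value was replicate 1 alone, and without that library the log2 change was 0.10.

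Nfkbiz encodes a nuclear member of the IkB family that works with NF-kB on the promoters of secondary response genes. The controls stood at 31.6, 32.3 and 30.6 FPKM and the 10 µg/ml libraries at 34.4, 32.2 and 32.2 FPKM, while the 100 µg/ml libraries stood at 19.2, 20.5 and 21.6 FPKM. The low-dose libraries lay within or above the range of the controls, and every 100 µg/ml library lay far below every other library. The mean fell by 35.1% between control and 100 µg/ml, from 31.5 ± 0.816 to 20.4 ± 1.24 FPKM (SD, n = 3), a log2 change of -0.60 with an SE of 0.058 (limma adjusted p = 0.0035). This call was kept in 17 of 17 alternative settings, with adjusted p-values of 0.0024 to 0.041. The gene (ENSMUSG00000035356) lies on the minus strand at chr16:55811375-55838899.

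Nfkbia encodes the classical inhibitor that keeps NF-kB in the cytoplasm and is resynthesized after each round of activation. It stood at 46.0, 45.5 and 44.4 FPKM in controls, at 42.3, 44.7 and 43.5 FPKM at 10 µg/ml and at 41.3, 34.1 and 33.5 FPKM at 100 µg/ml. The last group lay below the others, with replicate 1 close to the 10 µg/ml libraries. The means were 45.3 ± 0.836, 43.5 ± 1.20 and 36.3 ± 4.34 FPKM (SD, n = 3), a log2 difference of -0.32 between 100 µg/ml and control, or -0.41 without that replicate. The gene (ENSMUSG00000021025) lies on the minus strand at chr12:55489411-55492647.

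Nfkbie, a cytoplasmic inhibitor expressed near the limit of the test, stood at 1.47, 1.54 and 1.29 FPKM in controls, at 1.21, 1.07 and 1.10 FPKM at 10 µg/ml and at 0.921, 1.16 and 1.20 FPKM at 100 µg/ml. Both doses lay below the controls, and neither difference passed the test (log2 changes of -0.20 and -0.22, the latter with a limma adjusted p of 0.345). It rested on about 42.1 to 63.9 fragments per library. Bcl3, a nuclear coactivator of the family, had a log2 change of -0.28 at 100 µg/ml with libraries of 9.97, 9.76 and 13.7 FPKM, of which the last lay within the control range of 12.8 to 14.6 FPKM. The inhibitor gene Nfkbib and the nuclear family member Nfkbid overlapped the controls, with log2 changes of 0.033 and 0.079. Nfkbib shares 778 bases with Sirt2 on the opposite strand, and since no source states whether strand was used in counting, reads of such pairs may be shared.

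**Figure D2:**
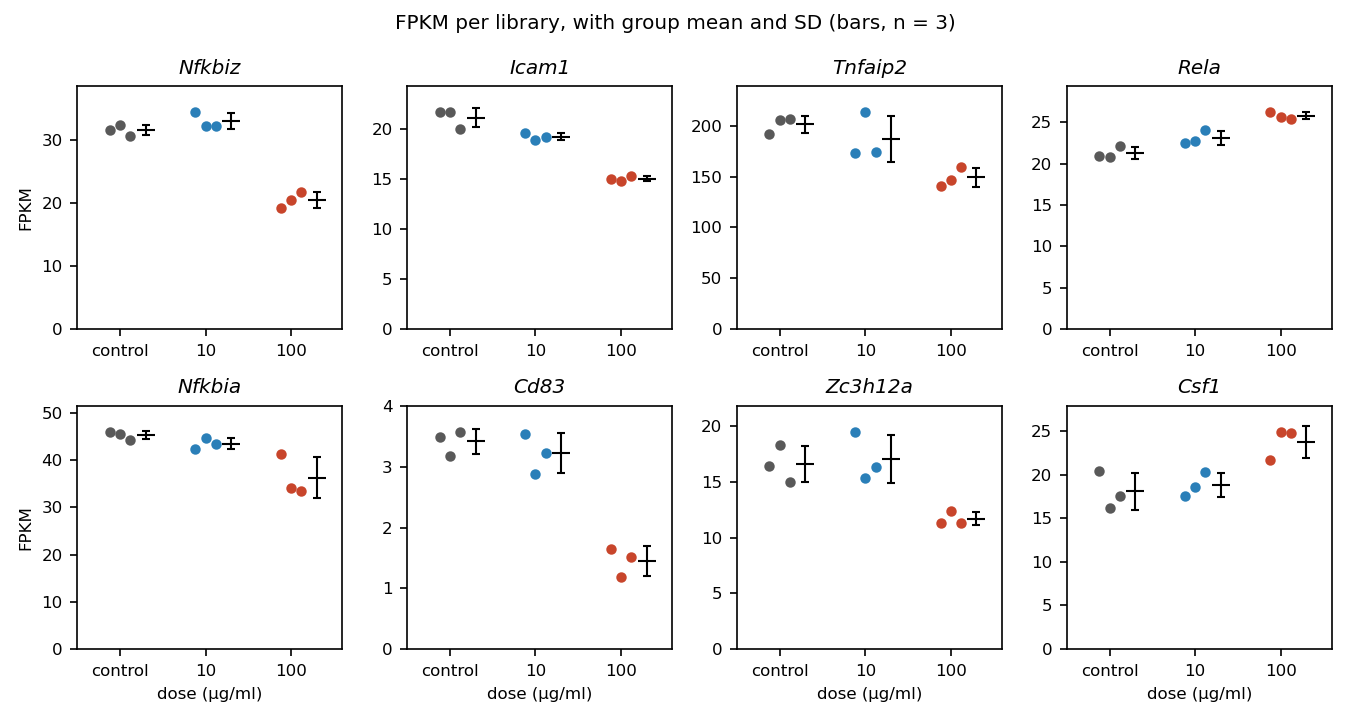
FPKM of 8 genes in each library (points) at 0, 10 and 100 µg/ml, with the mean and SD of each group (black bars, n = 3) and axes that start at 0. Nfkbiz, Icam1, Tnfaip2, Nfkbia, Cd83 and Zc3h12a sit lower at 100 µg/ml than in any control, and Rela and Csf1 sit higher.

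Of the 5 feedback genes, 2 had 100 µg/ml libraries below all controls and none passed the adjusted threshold (2 at an unadjusted p under 0.05), where 11.4% of all genes tested lay below all controls and 19.4% had such a p in limma. Zc3h12a encodes a ribonuclease that degrades inflammatory transcripts. It stood at 16.4, 18.3 and 15.0 FPKM in controls, at 19.5, 15.4 and 16.4 FPKM at 10 µg/ml and at 11.3, 12.4 and 11.4 FPKM at 100 µg/ml. The 100 µg/ml libraries were the lowest 3 of the 9, and the log2 change of -0.47 (SE 0.098) missed the threshold narrowly with a limma adjusted p of 0.051, while 5 of 17 alternative settings put it past the threshold (range 0.043 to 0.180). Tnfaip3 encodes the ubiquitin-editing enzyme that shuts off signalling to the IkB kinase. Its libraries stood at 24.7, 29.4 and 22.8 FPKM in controls, at 26.0, 29.1 and 28.9 FPKM at 10 µg/ml and at 18.6, 22.6 and 19.7 FPKM at 100 µg/ml. The highest of the 100 µg/ml values lay just under the lowest control, and the log2 change was -0.32 with a 95% interval of -0.55 to -0.085 (limma adjusted p = 0.142). Tnip1 and Tnip2, whose products bind the Tnfaip3 protein, and Cyld overlapped the controls, with log2 changes of -0.041, -0.0072 and -0.014. For Tnip1 the 95% interval was -0.15 to 0.069.

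Of the 9 targets, 4 had 100 µg/ml libraries below all controls and 1 had them above, where 11.4% and 12.5% of all genes tested did. The marking gene Cd83 was among the 4. Of the 6 targets tested other than Cd83, Icam1 and Tnfaip2 passed the test, both lower. Over all genes tested, 1.41% were called lower and 0.708% higher. Icam1 encodes the adhesion molecule that leukocyte integrins bind. It stood at 21.7, 21.7 and 20.0 FPKM in controls, at 19.6, 18.9 and 19.2 FPKM at 10 µg/ml and at 15.1, 14.9 and 15.3 FPKM at 100 µg/ml. No 2 groups overlapped, and the levels went down with dose. The mean fell by 28.8% from control to 100 µg/ml, from 21.1 ± 0.949 to 15.1 ± 0.213 FPKM (SD, n = 3), a log2 change of -0.46 with an SE of 0.052 (limma adjusted p = 0.0058). The call was kept in 16 of 17 alternative settings and lost, at an adjusted p of 0.061, where only the 6 libraries compared entered the fit. The gene (ENSMUSG00000037405) lies on the plus strand at chr9:21015960-21028797.

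Tnfaip2, by far the most abundant of the 44, stood at 192, 205 and 207 FPKM in controls, at 173, 213 and 174 FPKM at 10 µg/ml and at 141, 147 and 159 FPKM at 100 µg/ml. The 10 µg/ml libraries reached both below and above the controls, and those at 100 µg/ml lay below all others. The mean fell by 25.9% between control and 100 µg/ml, from 201 ± 8.19 to 149 ± 9.43 FPKM (SD, n = 3), a log2 change of -0.43 with an SE of 0.088 (limma adjusted p = 0.045). This call was kept in 4 of 17 alternative settings, and leaving out any single library other than replicate 2 of the 10 µg/ml group gave an adjusted p of 0.0609 to 0.168, with log2 changes of -0.48 to -0.39. It was also lost with no filter on low values (limma adjusted p = 0.083), quantile normalization (0.096), no trend (0.060) or only the 6 libraries compared (0.076). The gene (ENSMUSG00000021281) lies on the plus strand at chr12:111442469-111455018.

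Cd83, the gene of a surface protein of activated antigen-presenting cells, had the lowest level of the targets with a mean of at least 1 FPKM. It stood at 3.50, 3.18 and 3.58 FPKM in controls, at 3.55, 2.89 and 3.23 FPKM at 10 µg/ml and at 1.65, 1.18 and 1.52 FPKM at 100 µg/ml, on about 35.7 to 120.5 fragments per library. The 100 µg/ml libraries were well separated from both other groups, which overlapped. Its means were 3.42 ± 0.207, 3.22 ± 0.330 and 1.45 ± 0.245 FPKM (SD, n = 3), and the ratio of the 100 µg/ml mean to the control mean was 0.425. The gene (ENSMUSG00000015396) lies on the plus strand at chr13:43785107-43803130.

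Csf1, the gene of the growth factor on which macrophages and microglia depend, stood at 20.4, 16.2 and 17.6 FPKM in controls, at 17.5, 18.6 and 20.4 FPKM at 10 µg/ml and at 21.7, 24.9 and 24.8 FPKM at 100 µg/ml. The 100 µg/ml libraries were the highest 3 of the 9. Its log2 change of 0.38 with a 95% interval of 0.16 to 0.60 did not pass the test (limma adjusted p = 0.081), but without replicate 1 of the 100 µg/ml group it did, at 0.048. Cflar, which restrains caspase activation at death receptors, stood at 21.4, 20.4 and 21.6 FPKM in controls, at 22.7, 23.3 and 20.0 FPKM at 10 µg/ml and at 19.2, 19.9 and 19.8 FPKM at 100 µg/ml. Its gap to the controls was small, with a log2 change of -0.10 (limma adjusted p = 0.418). The survival gene Tnfaip8 and the ubiquitin ligase gene Birc3 overlapped the controls, with log2 changes of 0.22 and 0.080.

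On the upstream side 0 of 19 genes passed the adjusted limma threshold. An unadjusted p under 0.05 was found for 3 of them, against 19.4% of all genes tested. Ikbke, an inducible kinase related to the IkB kinases that also acts in interferon signalling, stood at 40.2, 42.7 and 35.8 FPKM in controls, at 32.8, 41.9 and 37.3 FPKM at 10 µg/ml and at 26.4, 35.5 and 30.8 FPKM at 100 µg/ml. The highest 100 µg/ml library lay just under the lowest control. The log2 change was -0.35 with a 95% interval of -0.63 to -0.074 (limma adjusted p = 0.166). The subunits of the IkB kinase complex itself, the kinases Chuk and Ikbkb and the scaffold Ikbkg, overlapped the controls and had log2 changes of 0.16, 0.064 and 0.22. The 95% interval of Ikbkb ran from -0.065 to 0.19. Ikbkg overlaps G6pdx on the opposite strand over 19712 bases, and its value may hold reads of that gene.

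Of the other kinases, Tbk1, Map3k7, Map3k8, Map3k14 and the kinase partner Tab2 overlapped the controls, with log2 changes from -0.16 for Map3k8 to 0.036 for Tbk1. Irak2, a kinase-like adaptor of the interleukin-1 and Toll-like receptors, stood at 6.51, 7.52 and 6.98 FPKM in controls, at 6.44, 7.06 and 6.99 FPKM at 10 µg/ml and at 5.96, 5.19 and 5.69 FPKM at 100 µg/ml. The 100 µg/ml libraries were the lowest 3, with a log2 change of -0.27 (limma adjusted p = 0.109). Irak3, an inhibitory relative of low abundance, stood at 3.28, 3.16 and 3.10 FPKM in controls, at 3.61, 2.82 and 3.33 FPKM at 10 µg/ml and at 2.98, 2.74 and 2.81 FPKM at 100 µg/ml. Its log2 change was -0.12 (limma adjusted p = 0.522), and its 541 bases of overlap with Tmbim4, a gene of 90.2 FPKM on the opposite strand, could weigh on so low a value.

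Ripk1, the kinase that joins the tumour necrosis factor receptor to both survival and death signalling, stood at 21.6, 23.3 and 23.5 FPKM in controls, at 22.5, 24.3 and 24.0 FPKM at 10 µg/ml and at 24.3, 27.6 and 26.7 FPKM at 100 µg/ml. Traf2, an adaptor of the same receptor, stood at 13.6, 13.2 and 13.2 FPKM in controls, at 12.4, 12.6 and 13.1 FPKM at 10 µg/ml and at 15.9, 14.2 and 13.8 FPKM at 100 µg/ml. Both were higher at 100 µg/ml in every library, and neither passed the test (log2 changes of 0.19 and 0.12, limma adjusted p = 0.154 and 0.338). Traf2 was the one gene of the set whose libraries lay below the controls at 10 µg/ml and above them at 100 µg/ml. The adaptors and ligases Birc2, Traf3, Traf6, Irak1, Irak4 and Ripk2 overlapped the controls, with log2 changes from -0.11 for Irak1 to 0.23 for Traf6. Birc2 is a close relative of Birc3, and reads that fit both may have been divided between them. On the opposite strand Ripk1 shares 432 bases with Serpinb6a, Traf2 shares 240 with Gm13433 and Irak4 shares 3865 with Twf1.

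**Figure D3:**
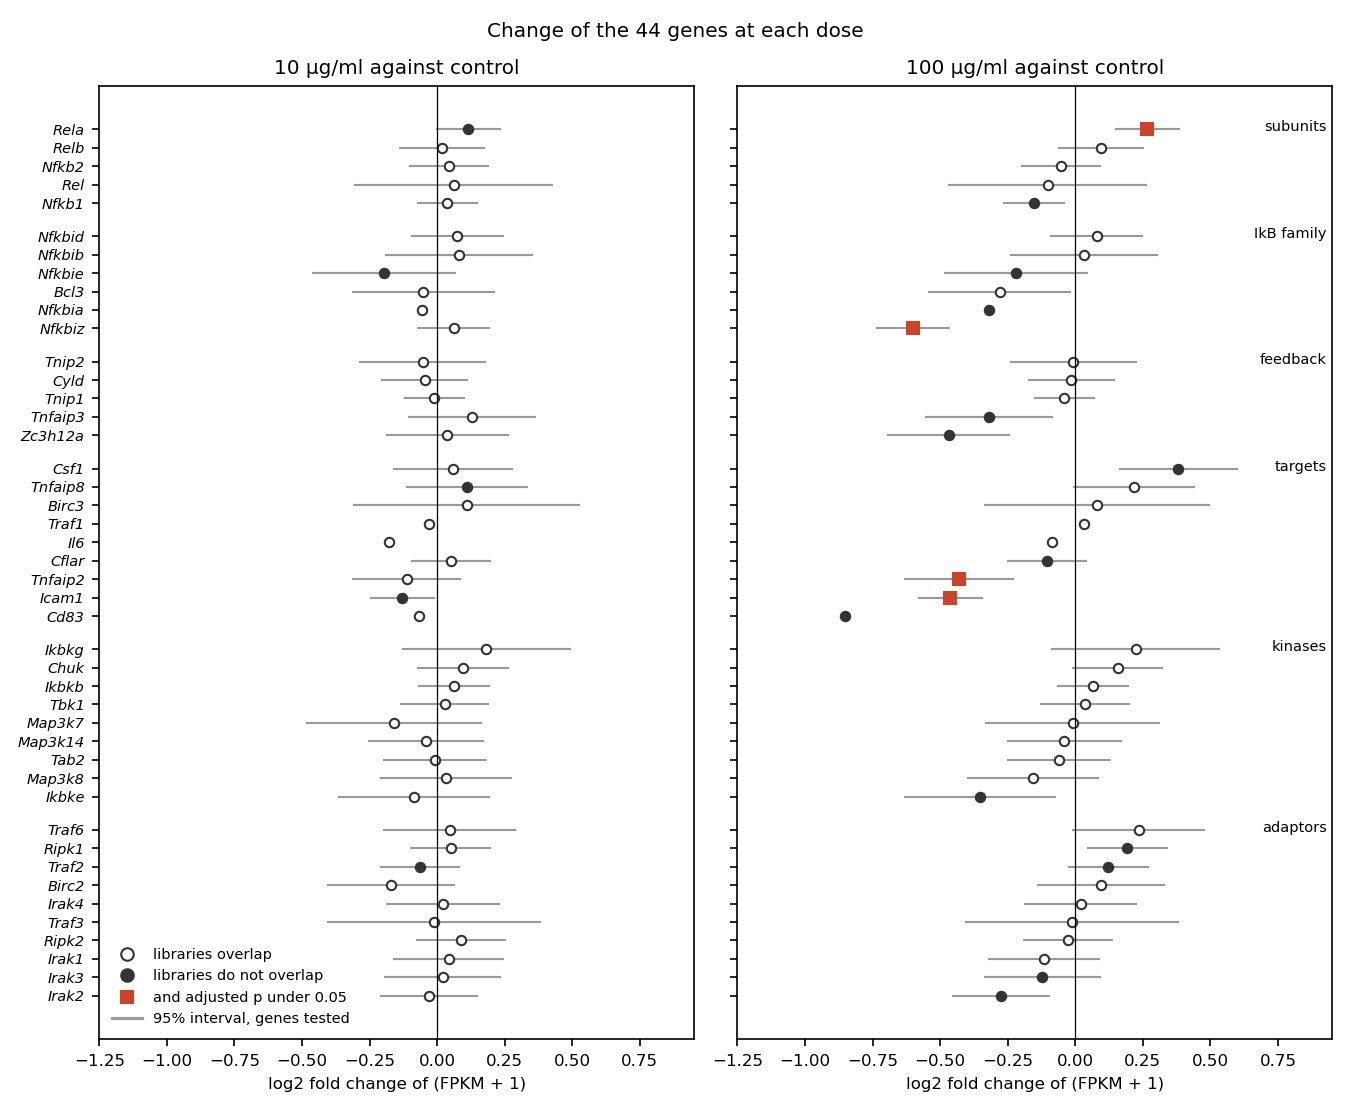
Log2 change of FPKM + 1 for each of the 44 genes at 10 µg/ml (left) and 100 µg/ml (right) against control, ordered by role, with 95% intervals for the genes tested. Filled points mark genes whose libraries do not overlap between the groups and red squares those that also passed the adjusted threshold, which are Rela, Nfkbiz, Icam1 and Tnfaip2, all at 100 µg/ml.

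Some genes of the set spread more at 100 µg/ml than in the other groups, with replicate 1 as the highest or lowest library. Traf3, an adaptor that restrains the alternative pathway, stood at 15.7, 24.3 and 25.9 FPKM against 20.0 to 23.6 FPKM in controls, and its log2 change went from -0.012 to 0.20 without replicate 1. Traf6, the ubiquitin ligase below the interleukin-1 and Toll-like receptors, stood at 12.5, 16.8 and 16.7 FPKM against 12.1 to 13.2 FPKM. Without replicate 1 its log2 change was 0.37 and it passed the test (limma adjusted p = 0.026). Nfkbib stood at 34.1, 23.6 and 27.8 FPKM and Map3k7, the kinase that activates the IkB kinase complex, at 20.1, 30.5 and 26.3 FPKM, so that all 3 libraries lay apart from each other. Tnfaip8 was spread almost evenly, at 52.6, 44.9 and 38.3 FPKM. Without replicate 1, 5 genes of the set passed the adjusted threshold at 100 µg/ml in place of 4, with Csf1 and Traf6 added and Tnfaip2 lost, and the same fit called 539 of all genes tested in place of 236. These genes were picked for their spread after their values were seen.

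**Figure D4:**
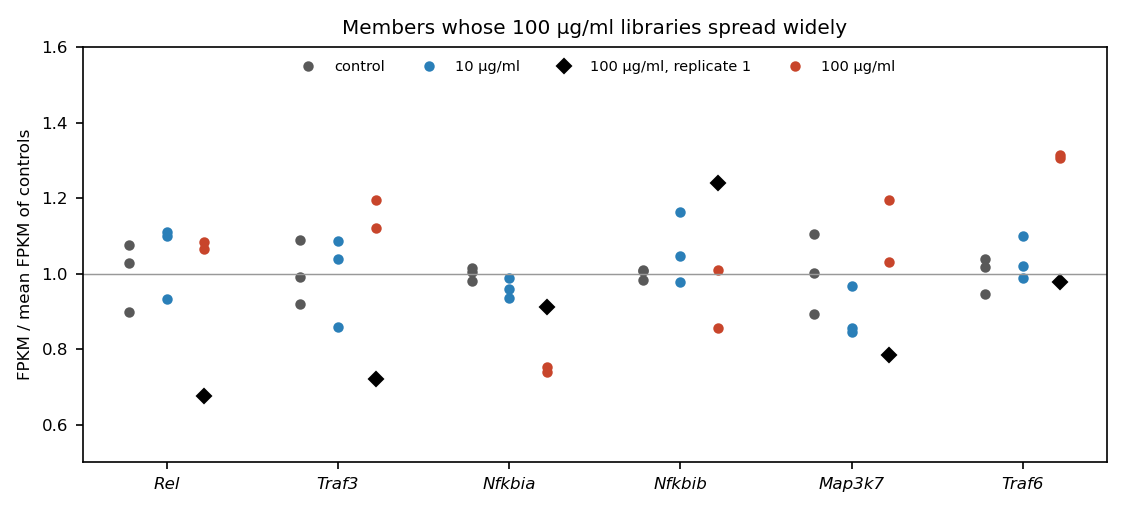
FPKM of each library divided by the mean of the controls for 6 genes, with replicate 1 of the 100 µg/ml group as black diamonds. The diamond lies below the other 100 µg/ml libraries for Rel, Traf3, Map3k7 and Traf6 and above them for Nfkbia and Nfkbib.

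At 10 µg/ml no gene of the set passed the test. The percentage called by limma was 0.0% over all genes tested too. Before adjustment, 366 genes in all (3.28%) had a p under 0.05, and the set held 1 of them, Icam1 (log2 change -0.13, limma adjusted p = 1.0). By library, 2 genes of the set were higher than every control (Rela and Tnfaip8) and 3 were lower (Nfkbie, Icam1 and Traf2), where 6.14% and 4.61% of all genes tested were. Of the 13 genes lower at 100 µg/ml, 11 overlapped the controls at 10 µg/ml and 2 were lower there too. Of the 4 genes higher at 100 µg/ml, 1 was higher at 10 µg/ml, 1 was lower and 2 overlapped. The matching shares over all genes tested were not counted, so nothing is read from these counts across doses. Nfkbiz, the clearest of the lower genes, had a log2 change of 0.061 at 10 µg/ml with a 95% interval of -0.072 to 0.19. The medians were 0.037 on the core and feedback side and 0.021 on the upstream side. Both doses were compared with the same controls, so their values are set side by side and no overlap between them is tested.

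Between the doses, Nfkbiz and Icam1 were lower at 100 than at 10 µg/ml. Nfkbiz had a log2 change of -0.66 (limma adjusted p = 0.0042) and Icam1 one of -0.33 (limma adjusted p = 0.029). They were the 2 genes called lower of the 40 tested, with 0 called higher, where limma called 0.636% of all genes tested lower and 0.215% higher. At an unadjusted p under 0.05 stood 12 of the 40, against 14.3% of all genes tested, and nothing is read from these counts. By library, 11 of the 44 were lower at 100 µg/ml than in every 10 µg/ml library (Nfkb1, Nfkb2, Nfkbia, Nfkbiz, Tnfaip3, Zc3h12a, Tnfaip2, Icam1, Cd83, Cflar and Irak2) and 6 were higher (Rela, Relb, Csf1, Birc2, Traf2 and Ripk1), where 9.99% and 9.37% of all genes tested were. Of the 11 lower genes, 10 were on the core and feedback side, with the marking genes Nfkbia and Cd83 among them. The Nfkbiz call was lost where only the 6 libraries compared entered the fit (adjusted p = 0.061), and the Icam1 call was lost there and when any single library other than control replicate 3 or replicate 1 of the 100 µg/ml group was left out (adjusted p of 0.0598 to 0.149). This comparison shares the 100 µg/ml libraries with the one against control.

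Other genes of the same pathway, from 2 lists of 34 upstream genes and 39 target genes that have 3 genes in common, moved at 100 µg/ml in both directions. Of the 31 upstream genes tested, limma called 1 higher and 2 lower against control, where 0.708% and 1.41% of all genes tested were. Tank, a regulator that binds TRAF proteins, rose from 38.9 to 39.7 FPKM in the controls to 47.5 to 49.3 FPKM (log2 change 0.30, limma adjusted p = 0.016). The receptor genes Tlr2, which senses bacterial lipoproteins, and Tnfrsf1b, a receptor of tumour necrosis factor, fell, with log2 changes of -0.47 and -0.36 (limma adjusted p = 0.0096 and 0.019) and no overlap between groups. The most abundant upstream genes that did not pass, Tax1bp1, Fbxw11 and Rbck1, had log2 changes of 0.068, 0.035 and 0.040.

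Of the 29 target genes tested, 1 was called higher and 5 were called lower, where 0.708% and 1.41% of all genes tested were. The lower ones included Tlr2 and Tnfrsf1b, which stand on both lists. Both lists were chosen with earlier results of these data known, so nothing is read from the size of these counts. Il1rn, the gene of the interleukin-1 receptor antagonist, rose from 32.1 to 35.2 FPKM in the controls to 48.8 to 57.6 FPKM (log2 change 0.70, limma adjusted p = 0.011). Sod2, the mitochondrial superoxide dismutase gene, fell by 0.39 on the log2 scale, the acute phase gene Saa3 by 0.65 and the gelatinase gene Mmp9 by 0.37 (limma adjusted p = 0.0096, 0.028 and 0.041). The most abundant targets that did not pass were the chemokine genes Ccl3, Ccl4 and Ccl2, with log2 changes of 0.076, 0.19 and -0.080. The median log2 change was -0.080 over the targets tested and -0.047 over the upstream genes tested. At 10 µg/ml no gene of either list passed the threshold, and 0.0% of all genes tested did. Between the doses 1 upstream gene was called higher (Tank) and 2 lower, and 4 targets were called lower (Sod2, Mmp9, Tlr2 and Tnfrsf1b). Over all genes tested, limma called 0.215% higher and 0.636% lower between the doses. Each of these calls against control was lost where only the 6 libraries compared entered the fit. Leaving out single libraries also lost those of Tlr2 (control replicate 2, limma adjusted p = 0.0561), Il1rn and Sod2 (control replicate 1 or 2, up to 0.0649 and 0.0572), Tnfrsf1b (control replicate 2 or 3 or 100 µg/ml replicate 3, up to 0.0864), Tank (any control or 100 µg/ml replicate 3, up to 0.0862), Saa3 (any control, 10 µg/ml replicate 1, or 100 µg/ml replicate 2 or 3, up to 0.118) and Mmp9 (any library but 100 µg/ml replicate 1, up to 0.146), and lost the 5 calls between doses for any library but 100 µg/ml replicate 1 (0.0503 to 0.200).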

How the data were processed

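Expression in BV2 cells was measured in 9 RNA-seq libraries, 3 each from non-treated controls and from cells at 10 and 100 µg/ml, grouped by their titles. The authors removed reads of low quality, used TopHat for alignment and ran Cufflinks 2.1.1, corrected for fragment bias and multiply mapped reads, to give the deposited FPKM values for genes of Ensembl release 77 (GRCm38). FPKM divides out transcript length and depth, but a gene's value can still move when other genes take more of a library. Whether strand was used in counting is not given in the sources used here. The authors' Cuffdiff test was not repeated.
The members and all gene lists were chosen with earlier results of these data known. All 44 members are named, by role, and those whose libraries at 100 µg/ml and control do not overlap are given in every library. From the other lists the genes past the threshold and the 3 most abundant others are named. The test was limma 3.58.1 (R 4.3.3) on log2(FPKM + 1) for every gene whose mean reached 1 FPKM, with a single fit over 3 groups, eBayes with trend, and p-values adjusted by Benjamini-Hochberg over all genes tested (threshold 0.05). The same procedure was tested on simulated data. Depth was read from the spacing of low values of long genes with a single transcript, of which 75.3% lay within 0.25 of a whole fragment. A share of 50% by chance would hold only for a depth fixed in advance. This depth was fitted to the same values, so the share is no check of it. The depth is approximate and was used for no test. Fragment counts of single genes assume fragments of 200 bases and the longest transcript of the gene. Of the members, 33 have identical coordinates in GENCODE M21, and gene coordinates are printed as the deposited table gives them. Tables were made in Python 3.11.15 (numpy 2.4.6 and pandas 2.3.3) and plots with matplotlib 3.10.9. The alternatives were a pseudocount of 0.1, no filter, a filter at 5 FPKM, median-of-ratios rescaling, quantile normalization, eBayes with no trend, a replicate block, a fit of only the 6 libraries compared, and fits with each library left out in turn.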

Additional observations from a re-analysis of the deposited data

How the results depend on the processing

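No member past the threshold changed direction under any alternative. At 100 µg/ml against control, 4 members passed the adjusted threshold in limma. The count was 5 with a pseudocount of 0.1, a filter at 5 FPKM or median-of-ratios rescaling, 4 with quantile normalization, 3 with no filter or without the trend, 1 with only the 6 libraries compared, and 2 to 5 when a single library was left out. Between the doses 2 members passed, 0 with only the 6 libraries compared, and 1 to 2 when a single library was left out. At 10 µg/ml against control the count was 0 in every setting. Same-numbered libraries of control and 100 µg/ml correlated at 0.152, 0.033 and 0.098 in their deviations from the group means, those of control and 10 µg/ml at -0.025, -0.025 and -0.031 and those of both doses at -0.088, 0.074 and -0.082, so the numbers were not taken to pair the libraries. With the replicate block 2 members passed against control (Nfkbiz and Icam1) and 1 between the doses (Nfkbiz), while limma called 106 of all genes tested in place of 236 and 13 in place of 95. The median log2 change of the core and feedback side between the doses was -0.049, and -0.128 to -0.016 when a single library was left out, the lowest without 100 µg/ml replicate 2. All genes called at 100 µg/ml against control numbered 22 with only the 6 libraries compared, and 31 to 539 when a single library was left out (539 without 100 µg/ml replicate 1, 31 without control replicate 2). Between the doses they numbered 6 and 8 to 191. At 10 µg/ml against control they numbered 0 to 4, the 4 with no filter. The median of the upstream side at 100 µg/ml against control lay close to 0 and took either sign, from -0.025 to 0.058, when a single library was left out, and that of the core and feedback side stayed between -0.130 and -0.040. Under both rescalings the median log2 change of all genes at 100 µg/ml stayed between -0.0037 and 0.0126. Il6, Traf1, Nfkbie and Cd83 rested on few fragments, at most about 120.5 in a library, and the effect of depth on their values was not tested.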
